A study of Homo sapiens with 2 samples.

Results

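The RNA levels of the integrin and laminin subunit genes were described in a pair of human lung cancer cell lines, H2087 and H596. The genes were taken from the gene table by symbol: ITGA followed by a number or by 2B, D, E, L, M, V or X, ITGB followed by a number from 1 to 8, and LAMA, LAMB or LAMC followed by a number from 1 to 5. Described here are 37 of the 27685 genes listed, of which 26 encode integrin subunits (18 α and 8 β) and 11 encode laminin subunits. The rule reads symbols only, although earlier results of these data were known when it was set.

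The study profiled total RNA of the 2 lines by stranded mRNA sequencing, with 1 library per line. Its paper used expression in H2087 to pick genes for work on inherited variants and patient outcome, and does not mention H596. Both lines were untreated, grown in RPMI medium with fetal bovine serum, and labelled as lung adenocarcinoma. The libraries held 46961500 (H2087) and 55387847 (H596) counts assigned to genes. With 1 library per line no difference has a replicate check, and the 95% intervals given below cover counting error only, so that cell line, culture and library cannot be told apart.

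Integrins are transmembrane receptors made of an α and a β chain, and the pairing sets the ligand: collagens, laminins, proteins with the RGD motif such as fibronectin, or counter-receptors on other cells. Laminins are secreted trimers of an α, a β and a γ chain, named by the numbers of their chains, and are the main adhesive proteins of epithelial basement membranes. In airway and skin epithelium, α6β4 anchors basal cells to laminin through hemidesmosomes, and α3β1 binds laminins at actin-linked contacts.

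The epithelial labels were checked on marker genes. All 5 epithelial markers were present in both lines, at 52.3 FPKM or more in H2087 and 59.6 FPKM or more in H596 (FPKM is the number of sequenced fragments scaled by transcript length and by library size). Their levels differed. KRT18 was at 3607 FPKM in H2087 and 234 in H596, KRT8 at 2493 and 536, EPCAM at 375 and 65.0, and KRT19 at 561 and 2183. Only CDH1 was within 2-fold. The adenocarcinoma markers were unequal: the lineage factor NKX2-1 was at 110.0 FPKM in H2087 and 0.508 in H596, the protease NAPSA at 21.9 and 0.0645, and keratin KRT7 at 791 and 608, while the surfactant gene SFTPB had 22 counts in H2087 and 0 in H596. The squamous and basal factor TP63 was at 0.183 FPKM in H2087 and 55.2 in H596, and the basal keratins KRT5 and KRT14 were at 0 counts in H2087 and at 106 and 1.33 FPKM in H596. Below 1 FPKM were thus 3 of the 4 adenocarcinoma markers in H596 and 1, SFTPB, in H2087, and every difference below is a difference between lines that differ in these markers too. Their part in the subunit levels was not tested.

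An FPKM of 1 was reached by 18 of the 37 genes in H2087 and by 18 in H596, and 17 stayed below it in both lines. The summed level was 486 FPKM in H2087 and 1118 FPKM in H596, and the genes took 0.288% and 0.741% of all gene counts. A difference was called by size alone, at 2-fold on the log2(FPKM + 1) scale, H596 minus H2087, where the mean of both lines reached 1 FPKM. Of the 13047 genes that passed this filter, 18.2% were higher and 14.2% lower in H596. Among the 19 subunit genes that passed it, 8 were higher, 4 were lower and 7 were neither, and their median difference was 0.89 against 0.12 over all genes tested. ITGA1, ITGB2 and ITGB8 passed the filter only through the line in which they were high, so these counts are a description.

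**Figure D1:**
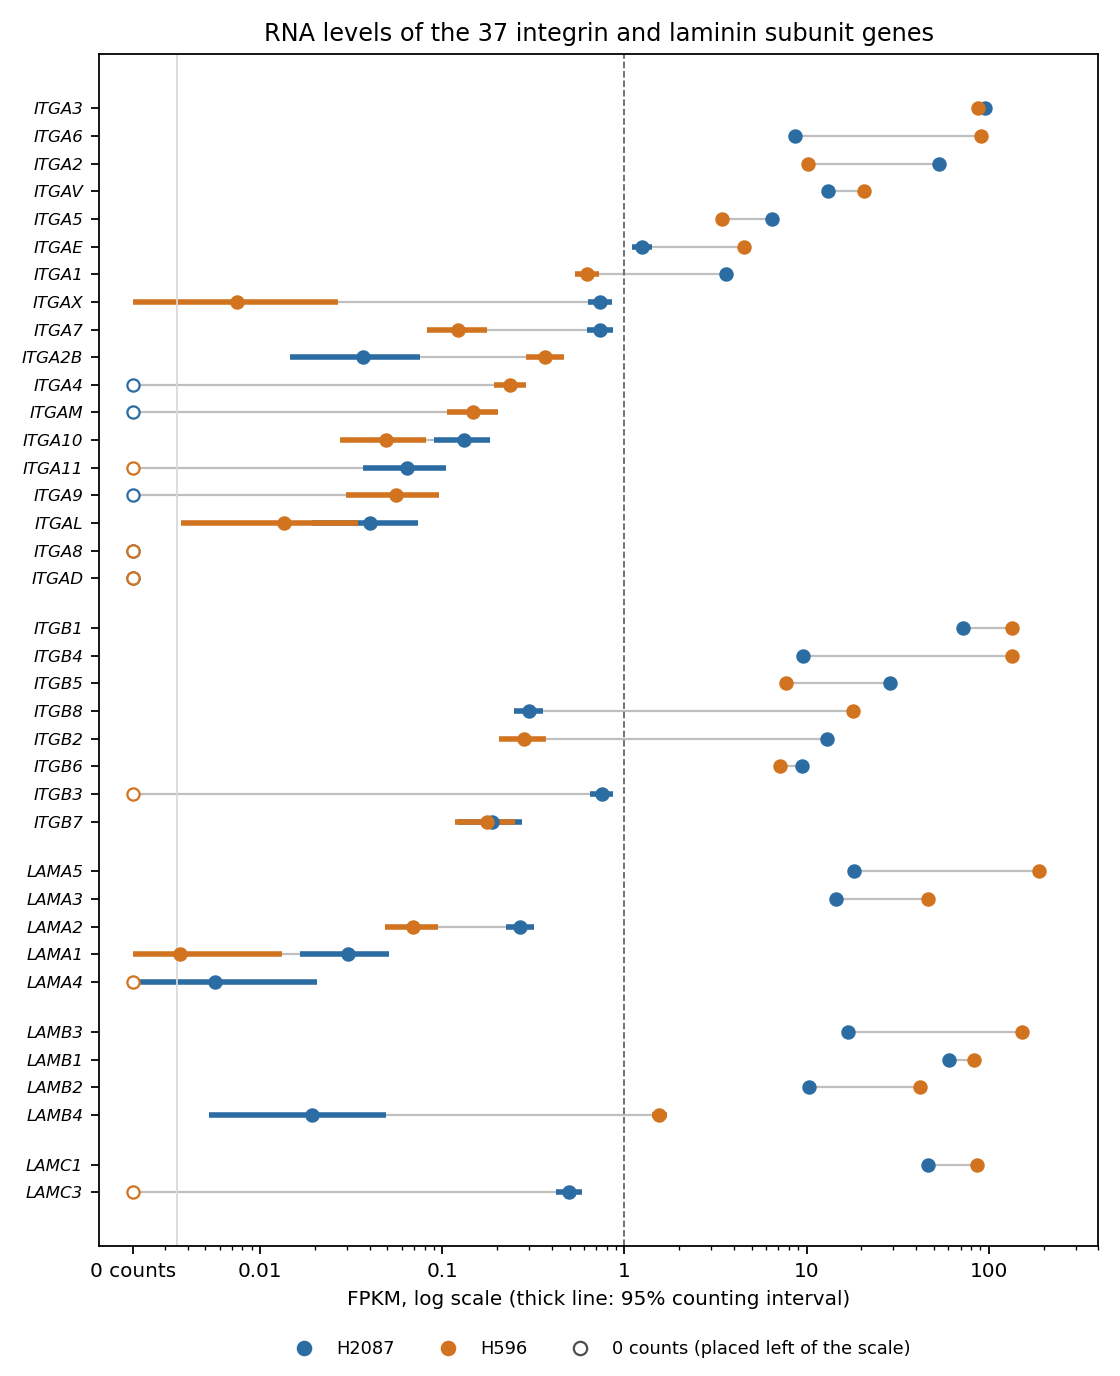
FPKM of the 37 subunit genes in H2087 (blue) and H596 (orange) on a log scale, grouped as α and β integrins and α, β and γ laminins, with 95% counting intervals as thick lines. Open circles left of the scale are libraries with 0 counts, and the dashed line is 1 FPKM. ITGA6, ITGB4, ITGB8, LAMA5 and LAMB3 lie farther right in H596, and ITGA2, ITGB2 and ITGB5 farther right in H2087.

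The sequences just upstream of the annotated first bases are shown for LAMA5, LAMB3 and LAMA3, laminin chains called higher in H596, with both start sites of LAMA3, between which its level was split. Each is the 250 bases before a first base in build hg19, read 5′ to 3′ on the strand of the gene, with matches to TGANTCA (the AP-1 motif) and to GGGCGG (the GC box, on either strand) in capitals. The TGANTCA motif reads the same on both strands, and the motifs do not overlap. The windows were chr18:21269157-21269406 (+) for the upstream start of LAMA3, chr18:21452734-21452983 (+) for its downstream start, chr20:60942369-60942618 (-) for LAMA5 and chr1:209825821-209826070 (-) for LAMB3.
LAMA3, upstream start: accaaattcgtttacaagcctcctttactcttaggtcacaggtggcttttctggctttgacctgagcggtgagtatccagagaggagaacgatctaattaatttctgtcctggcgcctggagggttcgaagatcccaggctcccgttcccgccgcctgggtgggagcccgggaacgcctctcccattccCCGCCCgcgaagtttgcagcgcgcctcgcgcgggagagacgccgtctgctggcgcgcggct
LAMA3, downstream start: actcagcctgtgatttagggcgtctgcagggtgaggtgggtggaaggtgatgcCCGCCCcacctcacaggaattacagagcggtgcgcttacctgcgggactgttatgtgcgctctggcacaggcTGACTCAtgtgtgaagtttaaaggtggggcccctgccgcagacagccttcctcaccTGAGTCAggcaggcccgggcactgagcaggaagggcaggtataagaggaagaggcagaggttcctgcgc
LAMA5: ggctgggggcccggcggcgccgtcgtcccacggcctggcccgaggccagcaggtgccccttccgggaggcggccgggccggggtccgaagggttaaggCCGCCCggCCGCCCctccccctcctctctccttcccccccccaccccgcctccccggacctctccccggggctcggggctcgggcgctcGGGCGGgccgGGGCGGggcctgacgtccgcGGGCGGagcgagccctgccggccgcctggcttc
LAMB3: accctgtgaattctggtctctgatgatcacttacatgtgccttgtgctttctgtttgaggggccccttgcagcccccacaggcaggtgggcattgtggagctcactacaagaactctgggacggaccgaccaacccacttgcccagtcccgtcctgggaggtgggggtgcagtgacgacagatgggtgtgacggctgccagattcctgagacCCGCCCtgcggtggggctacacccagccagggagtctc

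The downstream start of LAMA3 was the only one of the 48 windows of the 37 genes with more than 1 match to TGANTCA, at 125 and 69 bases before the first base. Of 31042 such windows of 23689 genes, 5.84% held the motif and 0.293% held it 2 or more times. A single match stood before the first base of LAMB1 (171 bases before), ITGA4 (192), ITGAD (42) and a minor start of LAMB3 (107), which makes 5 member windows, or 10.4%. GGGCGG was far more common, in 44.9% of all windows. LAMA5 held it 5 times in a window of 82.8% GC, against a median of 58.8% over all windows. LAMA1 also held it 5 times (78.4% GC) and ITGA9 6 times (82.8% GC), and both were near 0 FPKM. LAMB2, a laminin chain also called higher in H596, is not among the sequences shown, and its window held 0 matches to either motif (54.8% GC). A match says only that these letters occur in the window.

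Of the laminin-binding integrin chains, ITGA6 and ITGB4 were more than 10-fold higher in H596, and ITGA3 was at a high level in both lines. ITGA6, the α chain shared by the laminin receptors α6β1 and α6β4, was at 8.62 FPKM in H2087 (8.28 to 8.98, 2397 counts) and at 90.2 FPKM in H596 (89.2 to 91.2, 29776 counts), 10.5-fold higher in H596 (10.0 to 10.9). ITGB4, the hemidesmosome chain whose only known partner is ITGA6, was at 9.57 FPKM (9.21 to 9.94, 2655 counts) and 133.7 FPKM (132 to 135, 43439 counts), 14.0-fold higher (13.4 to 14.5). Both chains of α6β4 were thus the higher in H596, and they stood near each other in each line, with an ITGA6 to ITGB4 ratio of FPKM of 0.901 in H2087 and 0.675 in H596. ITGA3, the α chain of the other main laminin receptor, was at 95.9 FPKM (94.6 to 97.1) in H2087 and 87.1 FPKM (86.0 to 88.2) in H596, a difference of -0.14 on the log2(FPKM + 1) scale that was not called and became 0.04 when the values were rescaled to TPM. ITGA7, a laminin-binding chain best known from muscle, was at 0.733 and 0.123 FPKM.

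ITGB1, the common β chain of 12 of the 24 pairs considered, was at 72.0 FPKM in H2087 (70.7 to 73.2, 13344 counts) and 134.4 FPKM in H596 (133 to 136, 29502 counts), 1.87-fold higher (1.83 to 1.91), which is below the threshold. ITGB1 made up 53.8% of the summed β chain FPKM in H2087 and 44.6% in H596, whereas ITGB4 made up 7.16% and 44.4%. The ratio of ITGB1 to ITGB4 was therefore 7.52 in H2087 and 1.01 in H596. Among the 12 α chains that pair with ITGB1, ITGA3 had the largest share of the summed FPKM in H2087 with 52.7%, followed by ITGA2 with 29.3%, and ITGA6 had 4.74%. In H596 the leading chains were ITGA6 with 42.4% and ITGA3 with 41.0%, and ITGA2 had 4.76%. The summed FPKM of these α chains was 182 in H2087 and 213 in H596.

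Of the 4 collagen-binding α chains, ITGA1 and ITGA2 passed the filter and both were lower in H596. ITGA2, the α chain of the epithelial collagen receptor α2β1, was at 53.4 FPKM in H2087 (52.7 to 54.2, 20052 counts) and 10.1 FPKM in H596 (9.83 to 10.4, 4485 counts), 5.27-fold lower in H596 (5.11 to 5.45). This gene level sums 6 listed transcripts, of which only NM_002203 is a coding entry. As the authors' quantification divided the reads, NM_002203 was at 19.6 FPKM (36.8%) in H2087 and 2.15 FPKM (21.2%) in H596. ITGA1, the collagen chain that lies next to ITGA2 on chromosome 5 with 35.7 kb and no listed gene between them, was at 3.63 FPKM (3.39 to 3.89) and 0.623 FPKM (0.532 to 0.723), 5.83-fold lower (4.94 to 6.92). ITGA1 overlaps PELO on the same strand over 14317 bases, so reads in the shared region could not be assigned by strand, and PELO was at 20.1 and 9.56 FPKM. The remaining collagen chains, ITGA10 and ITGA11, were below 0.2 FPKM in both lines.

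Of the RGD-binding integrins, the αV chain was present in both lines, and of its 5 β partners ITGB8 was called higher and ITGB5 lower in H596. ITGAV was at 13.2 FPKM in H2087 (12.8 to 13.5) and 20.7 FPKM in H596 (20.2 to 21.1), a difference of 0.61 on the log2(FPKM + 1) scale that was not called. ITGB5, a vitronectin receptor chain, was at 28.6 FPKM (27.9 to 29.3, 6004 counts) and 7.70 FPKM (7.36 to 8.05, 1914 counts), 3.71-fold lower in H596 (3.53 to 3.91). ITGB8, whose αVβ8 pair activates latent TGF-β, was at 0.299 FPKM (0.249 to 0.356, 126 counts) and 17.9 FPKM (17.6 to 18.3, 8932 counts), 60.04-fold higher (50.4 to 72.2). ITGB6, the other TGF-β activating partner and an epithelial chain, was at 9.41 and 7.13 FPKM, a difference of -0.36 that was not called. Of the summed FPKM of the αV partners other than ITGB1, which was 39.1 in H2087 and 32.8 in H596, ITGB5 held 73.2% in H2087 and 23.5% in H596, ITGB8 held 0.765% and 54.7%, and ITGB6 held 24.1% and 21.8%. ITGB8 overlaps an uncharacterised gene, LOC101927811, over 661 bases, with 13 and 346 counts. ITGB3, a chain of platelets and endothelium that pairs with ITGAV or ITGA2B, had 177 counts (0.751 FPKM) in H2087 and 0 counts in H596. It was at least 69.6-fold lower in H596 when 3 counts are allowed there. Of 4 platelet markers 3 were at 0 counts in each line, and their summed level was 0.503 FPKM in H2087, which was PF4, and 0.0133 FPKM in H596, while 3 endothelial markers summed to 0.413 and 0.816 FPKM. The part of such cells in the ITGB3 level was not tested. ITGA5, the fibronectin receptor chain, was at 6.45 FPKM (6.11 to 6.81) and 3.43 FPKM (3.20 to 3.67), a difference of -0.75 that was not called.

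Among the chains of leukocyte integrins, ITGB2 had the highest level in H2087 and ITGAE in H596. ITGB2, the common β chain of the leukocyte receptors, was at 12.9 FPKM in H2087 (12.3 to 13.5, 1830 counts) and 0.279 FPKM in H596 (0.205 to 0.371, 47 counts), 46.3-fold lower in H596 (34.7 to 63.2). None of its 4 α partners reached 1 FPKM in either line. The nearest was ITGAX at 0.738 FPKM (167 counts) in H2087 and 0.00742 FPKM (2 counts) in H596, while ITGAL had 10 and 4 counts, ITGAM 0 and 40, and ITGAD 0 in both lines. Of 7 leukocyte markers, 6 were at 0 counts in H2087, among them PTPRC (the pan-leukocyte CD45), CD53 and CD3E, and the summed level of the list was 3.72 FPKM in H2087, which was the B cell gene CD79A, and 0.177 FPKM in H596. In H2087, 71.5% of the ITGB2 level fell on the transcript with the most upstream start (9.24 FPKM, against 0.0113 in H596) and 28.5% on a start 7823 bases downstream (3.68 and 0.268 FPKM). The antisense gene ITGB2-AS1 overlaps ITGB2 by 7839 bases and was at 4.67 and 0.937 FPKM. ITGAE, the α chain that pairs with ITGB7 on intraepithelial lymphocytes, was at 1.25 FPKM (1.10 to 1.42, 232 counts) and 4.51 FPKM (4.24 to 4.80, 989 counts), 3.61-fold higher in H596 (3.12 to 4.18). Its partner ITGB7 was at 0.187 and 0.175 FPKM, and ITGAE overlaps another gene, GSG2, over 2796 bases, which was at 1.58 and 5.42 FPKM. The other integrin chains were low: ITGA4, ITGA9 and ITGA2B were below 0.4 FPKM in both lines, and ITGA8 had 0 counts in both, which allows up to 0.00917 FPKM in H2087 and 0.00778 in H596.

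The known pairs were then read from their chains, a pair being counted when both RNAs reached 1 FPKM and its level being that of the less abundant chain. This is a statement on RNA, and neither the proteins nor their assembly were measured. Of 24 pairs, 9 were present in H2087 and 9 in H596, with 8 in both: α2β1, α3β1, α5β1, α6β1, α6β4, αVβ1, αVβ5 and αVβ6. At this minimum the pair α1β1 was counted only in H2087 (3.63 against 0.623 FPKM) and αVβ8 only in H596 (17.9 against 0.299). By ligand, 3 of the 4 laminin pairs were present in each line, 2 and 1 of the 4 collagen pairs, 4 and 5 of the 8 RGD pairs, and none of the 8 leukocyte, α4 and α9 pairs. With a minimum of 0.5 FPKM, 12 pairs were present in H2087 and 10 in H596, α1β1 then being present in both lines and α7β1, αVβ3 and αXβ2 in H2087. A minimum of 1 TPM gave the same pairs.

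The order of the pairs differed between the lines. In H2087 the highest levels were those of α3β1 (72.0 FPKM, limited by ITGB1) and α2β1 (53.4), followed by αVβ1 and αVβ5 at 13.2, both limited by ITGAV, then αVβ6 (9.41), α6β1 and α6β4 at 8.62, and α5β1 (6.45). In H596 α6β1 and α6β4 (90.2) and α3β1 (87.1, limited by ITGA3) came first, then αVβ1 (20.7), αVβ8 (17.9), α2β1 (10.1), αVβ5 (7.70, limited by ITGB5), αVβ6 (7.13) and α5β1 (3.43). The 3 laminin receptors were thus the 3 highest pairs in H596, and in H2087 only α3β1 was among the 3 highest. The α2β1 levels include non-coding entries of ITGA2. Its coding transcript NM_002203 alone was at 19.6 FPKM in H2087 and 2.15 FPKM in H596, the latter below the level of α5β1. Chains that enter several pairs, such as ITGB1, ITGAV and ITGA6, were given at their full level for each. The levels of α6β1 and α6β4 are therefore the same ITGA6 level given for each pair. The α partners of ITGB1 summed to 182 FPKM in H2087 against 72.0 FPKM of ITGB1, and to 213 FPKM in H596 against 134.4 FPKM.

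**Figure D2:**
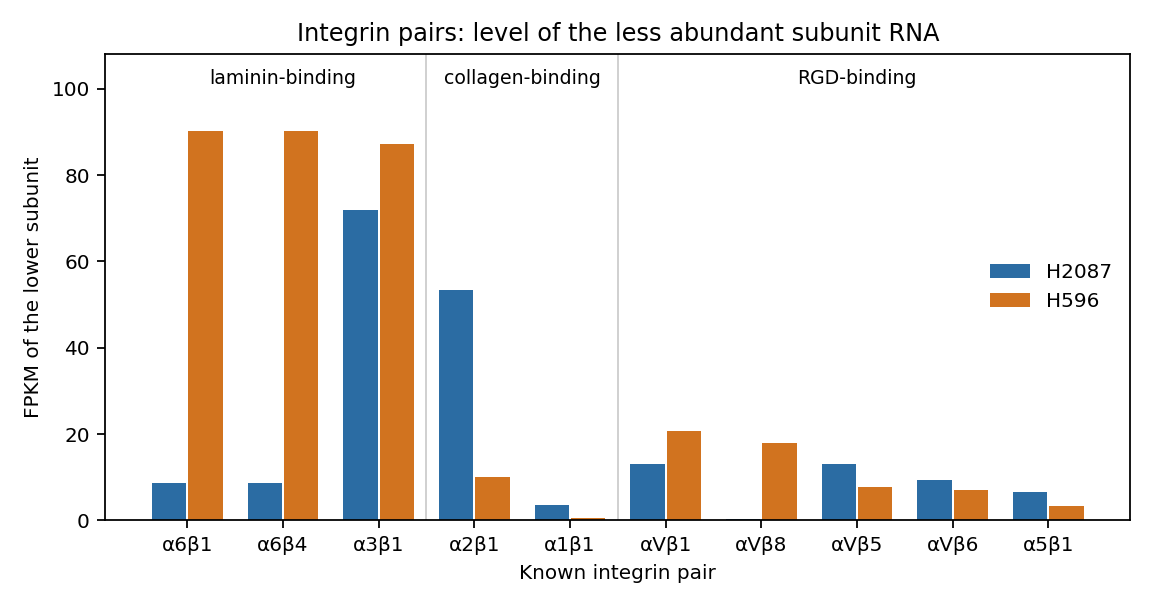
Level of the 10 integrin pairs present in at least 1 line, as the FPKM of the less abundant of the 2 chains, in H2087 (blue) and H596 (orange), grouped by ligand class. α6β1 and α6β4 stand at 8.62 in H2087 and 90.2 in H596, α2β1 at 53.4 and 10.1, and αVβ8 is visible only in H596.

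Of the 5 laminin α chains, LAMA3 and LAMA5 passed the filter and both were higher in H596. LAMA5, the α chain of laminin-511 and laminin-521, was at 18.2 FPKM in H2087 (17.8 to 18.5, 9945 counts) and 187.6 FPKM in H596 (187 to 189, 121684 counts), 10.3-fold higher in H596 (10.1 to 10.6), and its rank among all genes was 4081 in H2087 and 296 in H596. LAMA3, the α chain of laminin-311 and laminin-321, was at 14.5 FPKM (14.1 to 14.9, 5355 counts) and 46.5 FPKM (45.8 to 47.2, 17566 counts), 3.21-fold higher (3.11 to 3.31). LAMA5 supplied 55.1% of the summed α chain FPKM in H2087 and 80.1% in H596. The chains of embryonic, muscle and vascular basement membranes, LAMA1, LAMA2 and LAMA4, were at or below 0.267 FPKM in both lines.

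Of the β chains, LAMB3, an epithelial laminin chain, was at 16.9 FPKM in H2087 (16.4 to 17.5, 3314 counts) and 151.6 FPKM in H596 (150.0 to 153, 35148 counts), 8.95-fold higher in H596 (8.64 to 9.28). LAMB2 was at 10.3 FPKM (9.93 to 10.7) and 41.8 FPKM (41.1 to 42.5), 4.05-fold higher (3.89 to 4.22). LAMB1, the widespread β chain, was at 60.6 FPKM (59.7 to 61.5) and 83.1 FPKM (82.1 to 84.1), a difference of 0.45 on the log2(FPKM + 1) scale that was not called. LAMB1 was thus the leading β chain in H2087 with 69.0% of the summed β chain FPKM, and LAMB3 in H596 with 54.5%. LAMB4, which is not part of any trimer considered and lies 20.2 kb from LAMB1, had 4 counts in H2087 and 438 counts (1.55 FPKM) in H596 and did not pass the filter on the mean.

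LAMC1, the widespread γ chain, was at 46.4 FPKM in H2087 (45.7 to 47.1) and 86.7 FPKM in H596 (85.9 to 87.6), 1.87-fold higher in H596 (1.84 to 1.90) and below the threshold. LAMC3 had 146 counts (0.499 FPKM) in H2087 and 0 counts in H596, at least 57.4-fold lower in H596.

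**Figure D3:**
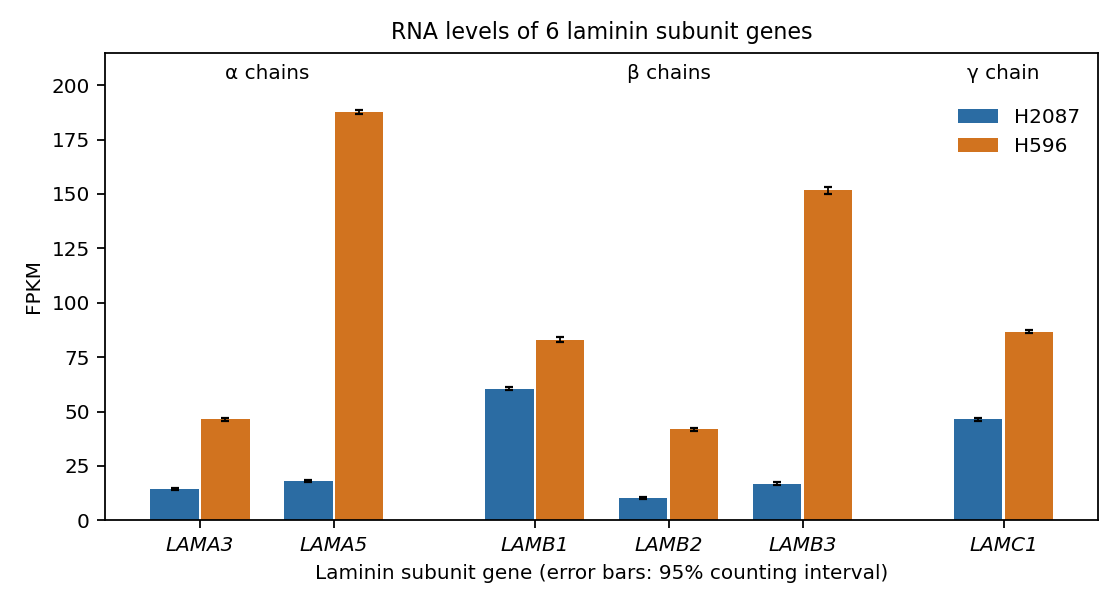
FPKM of 6 laminin chains with at least 10 FPKM in both lines, with 95% counting intervals as error bars, in H2087 (blue) and H596 (orange). LAMA3, LAMA5, LAMB2 and LAMB3 are more than 2-fold higher in H596, and LAMB1 and LAMC1 differ by less than 2-fold.

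The epithelial chains LAMB3 and LAMA3 stood in different proportions in the lines. The FPKM of LAMB3 was 1.17 times that of LAMA3 in H2087 and 3.26 times in H596.

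Of 13 known trimers read here, the same 4 had all chains at 1 FPKM or more in each line: laminin-311, laminin-321, laminin-511 and laminin-521. The level of the least abundant chain was higher in H596 for each. These are not 4 separate levels, since chains that enter several trimers, such as LAMC1 and LAMB2, were given at their full level for each. The least abundant chain was at 14.5 and 46.5 FPKM for laminin-311, limited by LAMA3, and at 10.3 and 41.8 FPKM for laminin-321 and laminin-521, limited by LAMB2. For laminin-511 it was 18.2 FPKM in H2087, where LAMA5 was the least abundant chain, and 83.1 FPKM in H596, where LAMB1 was. Laminin-511 was the highest of these trimers in both lines by this measure. The other 9 trimers lacked LAMA1, LAMA2, LAMA4 or LAMC3 at this level.

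The transcripts of the genes were read next, 85 in all, 16 of the 37 genes having 1 listed transcript. LAMA3 encodes a long chain from an upstream start and a short epidermal chain from a start 183577 bases downstream within the gene. The 4 transcripts of the upstream start (first base at position 21269407 of chromosome 18) summed to 7.94 FPKM in H2087 and 10.8 FPKM in H596, 1.35-fold higher in H596. This sum is not that of the long chain alone, since NR_130106 (1975 bases) and NM_001302996 (1749 bases) are short. The main long transcript, NM_198129 (10660 bases), was at 6.81 FPKM in H2087 and 9.51 FPKM in H596, and NR_130106 at 1.10 and 0.358 FPKM. The 2 transcripts of the downstream start (first base at 21452984) summed to 6.56 and 35.8 FPKM, 5.45-fold higher. The downstream start thus took 45.2% of the LAMA3 level in H2087 and 76.9% in H596. These shares rest on how the authors' quantification divided reads of the shared exons.

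ITGA6 is listed with 3 transcripts, and the pair that carried nearly all of the level, NM_000210 and NM_001079818, differ by 130 bases in length. NM_000210 was at 5.53 FPKM in H2087 and 72.7 FPKM in H596, and NM_001079818 at 3.09 and 17.1 FPKM, so the former held 64.1% and 80.6% of the gene's level. ITGB4 is listed with 4 transcripts. NM_001005619 had 0 counts in H2087 and 107.8 FPKM in H596, where it held 80.7% of the level, and the other 3 summed to 9.57 and 25.8 FPKM. The first base of NM_001005619 lies 2 bases inside an exon. In 5 of 5 annotated ITGB4 transcripts with an exon that starts at exactly this edge, another exon precedes it. Transcripts that start inside the exon, as NM_001005619 does, were not counted. The count therefore cannot decide whether a start lies there. The 60 bases that end at the first bases of the exon (chr17:73720716-73720775, hg19, + strand) are given to show this edge. The CAG before the exon, a usual end of an intron, is in capitals.
ITGB4, exon edge: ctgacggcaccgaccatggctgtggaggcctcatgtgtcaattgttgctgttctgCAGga
The division of the ITGB4 level between transcripts is given as an estimate, and use of a second start was not tested.

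ITGB1 and LAMB3 each had 1 dominant transcript in both lines. NM_002211 held 97.9% and 98.9% of ITGB1, and NM_000228 held 88.3% and 87.4% of LAMB3. The gene value equalled the sum of its transcripts within 0.01 FPKM for 37 of 37 genes.

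**Figure D4:**
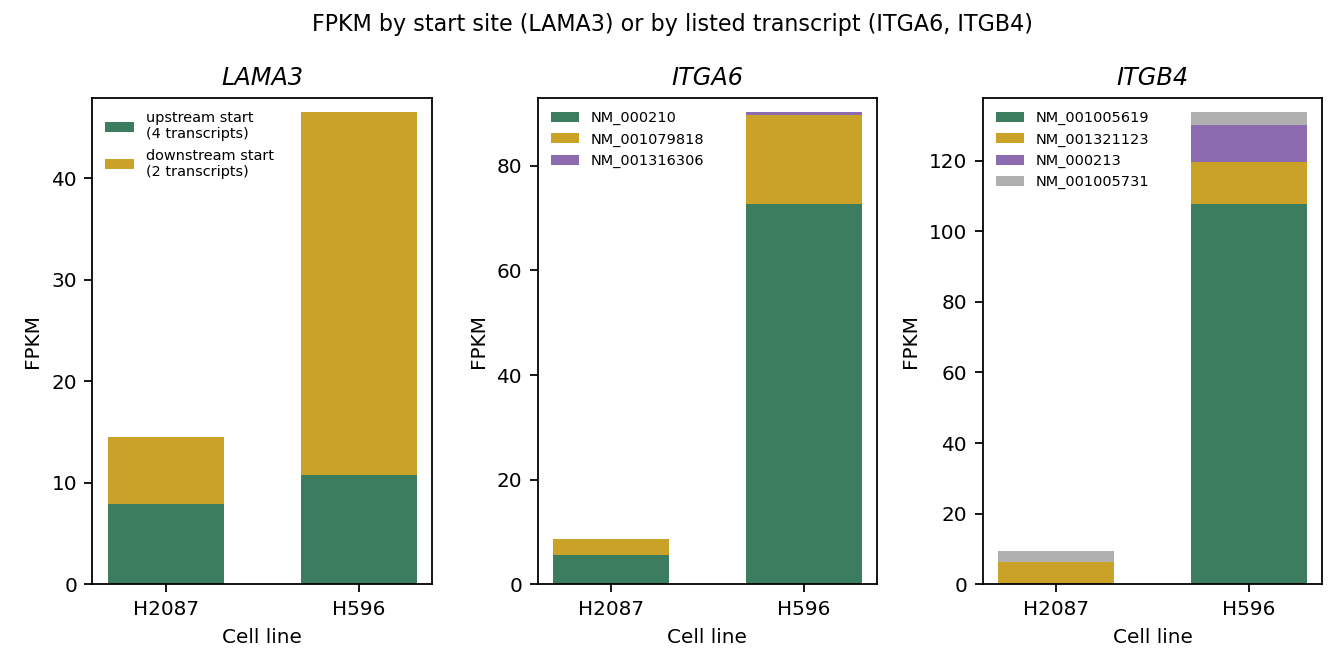
Stacked FPKM of LAMA3 by start site and of ITGA6 and ITGB4 by listed transcript in each line, each panel with its own axis from 0. The downstream start of LAMA3 stands at 6.56 in H2087 and 35.8 in H596, while the upstream start stands at 7.94 and 10.8.

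The other genes of matrix adhesion were read from 6 lists with 74 genes, of which 57 passed the filter. Of these, 21 (36.8%) were higher and 8 (14.0%) lower in H596, with a median difference of 0.46, beside 18.2% and 14.2% of all genes. Of the calls, 8 of the 21 higher and 5 of the 8 lower genes passed the filter only through the line in which they were high, so the shares are a description. The lists did not share 1 direction.

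The hemidesmosome and tetraspanin genes, which couple α6β4 to keratin filaments and organise laminin-binding integrins in the membrane, had 4 of 7 higher and none lower. COL17A1, the transmembrane collagen of hemidesmosomes, was at 0.160 FPKM in H2087 and 113 FPKM in H596, 704-fold higher (524 to 969), and passed the filter only through H596. The tetraspanin CD82 was at 5.43 and 74.8 FPKM. The other laminin receptors had 3 of 5 higher and none lower. DAG1, the gene of dystroglycan, was at 15.3 and 77.9 FPKM, and BCAM, which binds LAMA5, at 9.78 and 40.9 FPKM. RPSA, a ribosomal protein also described as a laminin receptor, was at 732 and 728 FPKM. Of the 14 other basement membrane genes, 8 passed the filter and 7 of these were higher, but 5 of the 7 passed only through H596, so the common direction is partly set by the filter. COL4A5, a type IV collagen chain, had 0 counts in H2087 and 27.9 FPKM in H596, and COL4A4 was at 0.165 and 4.61 FPKM.

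The cytoplasmic adaptors, which link β chain tails to actin, had 3 of 19 higher and 3 lower, with a median difference of -0.23. Over all genes tested, 18.2% were higher and 14.2% lower, and the adaptors stood near these shares. The tensin TNS3 was at 16.4 and 69.2 FPKM and the epithelial kindlin FERMT1 at 11.9 and 48.4 FPKM. FERMT2, the kindlin of most other cell types, was at 9.31 and 0.702 FPKM, and the parvin PARVB at 19.3 and 1.95 FPKM. Of the 3 lower adaptors, 2, FERMT2 and PARVG, passed the filter only through H2087, so their calls are a description. Another kindlin, FERMT3, was at 1.26 and 0.0878 FPKM and did not pass the filter. Among the signalling genes, 2 of 7 were higher and 1 lower, beside the same shares of all genes. The kinases SRC (10.4 and 39.4 FPKM) and PTK2B (5.05 and 16.7) were higher, and FYN (2.96 and 0.722) was lower. FYN passed the filter only through H2087. DOCK1, an exchange factor for Rac, was at 11.2 and 8.25 FPKM and was not called.

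The other integrin ligands had 2 of 11 higher and 4 lower, beside 18.2% and 14.2% of all genes tested. The 2 higher genes, NPNT and LTBP1, passed the filter only through H596. Of the 4 lower genes, 2, TNC and NRROS, passed it only through H2087, so these counts are a description. TNC, the gene of the matrix protein tenascin-C, was at 60.5 FPKM in H2087 and 0.461 FPKM in H596, 131-fold lower in H596, and FN1, the gene of fibronectin, was at 55.1 and 1.88 FPKM, 29.3-fold lower. NPNT, the gene of nephronectin, had 0 counts in H2087 and was at 54.8 FPKM in H596. LTBP1, which holds latent TGF-β in the matrix, was at 0.392 and 14.0 FPKM, 35.7-fold higher. Of 5 fibroblast markers, 3 were at 0 counts in H2087 and 2 in H596, COL1A1 was at 3.89 and 0.916 FPKM, and DCN had 0 counts in H2087 and was at 9.77 FPKM in H596. Their part in the ligand levels was not tested.

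**Figure D5:**
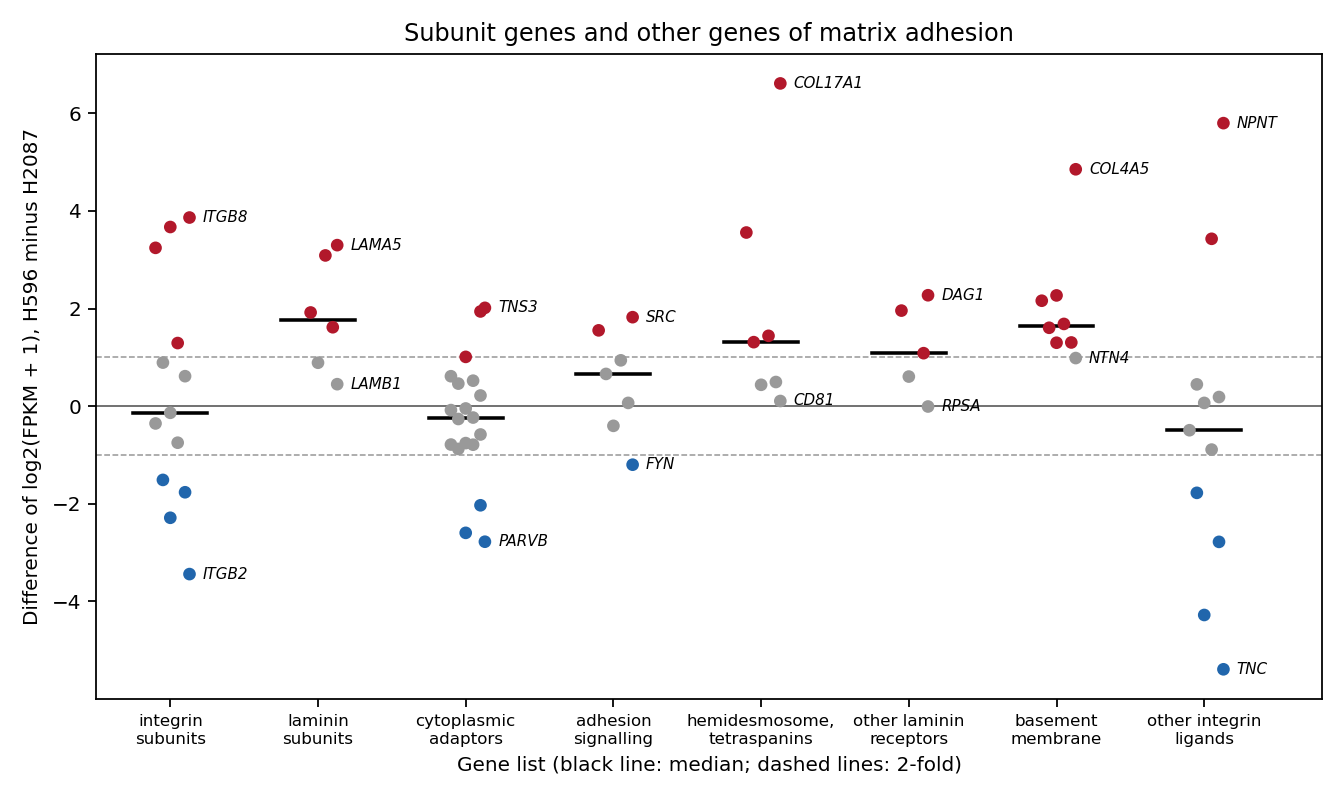
Difference of log2(FPKM + 1), H596 minus H2087, of each gene that passed the filter on mean FPKM, for the integrin and laminin subunits and for 6 lists of adhesion genes, with genes at least 2-fold higher in red and at least 2-fold lower in blue. Black lines are medians, and the genes at both ends of each list are named. In the hemidesmosome, laminin receptor and basement membrane lists no gene lies below the lower dashed line.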

How the data were processed

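Total RNA was extracted with TRIzol and sequenced by the authors on an Illumina HiSeq4000 from stranded mRNA libraries, 1 per cell line. The submitters' processing notes name bcl2fastq 1.8.4, Trimmomatic, HISAT2 2.0.5, StringTie 1.3.3b and build hg19, with transcripts of RefSeq. The authors deposited a gene table and a transcript table, each with FPKM and with estimated counts of reads, made from the aligned reads and written as whole numbers, and transcript lengths. The step that made the counts is not given in the sources used here.

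From these, differences of log2(FPKM + 1) were computed with Python 3.11.15, pandas 2.3.3 and scipy 1.17.1. A symbol listed more than once was taken from its row with the larger mean. A gene was tested for size at a mean FPKM of at least 1 and called at a difference of 1. Intervals are exact Poisson (FPKM) and exact binomial (folds) at 95%, and a count of 0 allows 3 counts, both for counting error only, since molecular identifiers are not mentioned. No test was run. Alternatives used edgeR 4.0.16 TMM factors and DESeq2 1.42.0 size factors of the deposited counts, TPM, centring, other pseudocounts, filters and FPKM minimums, and the highest single transcript. The scripts were tested on simulated data. From each adhesion list, the 2 genes with the largest difference in each direction were named, a direction without such a gene giving none. The members and lists were chosen with earlier results of these data known. Upstream windows and exons came from the hg19 (GRCh37) genome and GENCODE annotation, and first bases from the deposited transcripts. One gene that the symbol rule also takes, the laminin trimers that need it and 1 upstream sequence are not reported here.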

Additional observations from a re-analysis of the deposited data

How the results depend on the processing

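Of 52 recomputed counts of subunit genes, adhesion genes, pairs and trimers, 50 stayed within 1.5 times the value given. With both chains required at 10 FPKM, 4 integrin pairs in place of 9 were counted in H2087, and with a mean FPKM of at least 5, 5 in place of 8 adhesion genes were lower, since fewer genes pass. The median difference of all tested genes was 0.12 as deposited, 0.00 with TMM, -0.01 with DESeq2 size factors and 0.29 with TPM, and the share of called genes that were higher was 56.2%, 49.1%, 48.6% and 64.2%. TPM gave 11 in place of 8 higher subunit genes, adding ITGB1 (1.08), LAMC1 (1.08) and LAMB4 (2.20), and turned the sign of ITGA3 (0.04). No called difference changed sign. No paired analysis was possible because there is a single library on each side, and for the same reason no library could be left out. Depth limits the genes with few counts, such as ITGAX and LAMB4.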

Other observations

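Some genes that overlap a subunit gene differed together with it or apart from it. METTL7B, which shares 41 bases with ITGA7 on the opposite strand, was at 12.3 FPKM in H2087 (888 counts) and 0.0234 FPKM in H596 (2 counts), where ITGA7 was at 0.733 and 0.123 FPKM. ITGA9-AS1, antisense to ITGA9 over 66102 bases, had 0 counts in H2087 and was at 2.94 FPKM in H596 (91 counts), where ITGA9 had 13 counts. LAMA5-AS1, antisense to LAMA5 over 3469 bases, had 0 counts in both lines.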
